A study of Mus musculus with 288 samples.

Results

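Cirbp and Rbm3, the genes of the cold-inducible RNA-binding proteins CIRBP and RBM3, were taken by name from expression tables of 35904 genes and are 2 of them. Both were measured in every library. The study asked how rhythmic and mean 24-hour gene expression differ between tissues of mice kept in normoxia and mice exposed to intermittent hypoxia (IH), a model of obstructive sleep apnea. All animals were wild-type male C57BL/6J mice aged 8 weeks. IH mice spent 7 days with oxygen cycling between 21% and 8%, about 50 times an hour, during the light phase, and normoxia mice stayed in room air. Cerebellum, heart, muscle, kidney, lung and liver samples were then taken in constant darkness and normal oxygen, after the exposure had ended, from 3 mice per treatment at each of 8 times, 3 hours apart. Each tissue therefore had 24 normoxia and 24 IH libraries, and a tissue in 1 treatment is called a set (12 sets). The labels give the times as 1:30 to 22:30 and do not say which clock they count from, so every hour below is on the labels' scale.

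CIRBP and RBM3 are small proteins with an RNA recognition motif (RRM) followed by a tail rich in arginine and glycine. Both are known for messages that accumulate when cells are cooled mildly and decline when they are warmed, the opposite of the heat shock response, and the daily rhythm of body temperature is known to drive their rhythm in peripheral tissues. CIRBP is known to bind messages of clock components such as Clock, and RBM3 is known for roles in translation and in the protection of synapses. Body temperature was not part of the tables analysed here.

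Values were in TPM, the abundance of transcripts scaled to their length and to a fixed sum per library, so genes can be compared with each other within a library. The sums of the listed genes ran from 989211 to 999188. TPM keeps no read counts, so the tables do not give the depth of each library and no counting interval can be given. The mean number of genes above 0 TPM lay furthest apart between treatments in the lung (22694 in normoxia and 25455 in IH) and the heart (25124 and 21447). In the lung it ran from 21746 to 25400 in normoxia and from 23622 to 28284 in IH. In the heart it ran from 22988 to 28331 in normoxia and from 20316 to 22793 in IH, with no overlap, so in the heart this number and the treatment cannot be told apart.

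Markers of the labelled tissue were the highest of 6 tissue lists in 286 libraries, all but 2. The exceptions were the IH liver library of replicate 2 at 13:30, with 1507 TPM of the heart gene Myh6, and the IH cerebellum library of replicate 3 at 1:30, with 1501 TPM of Myh6. The second of these had the lowest Cirbp and the lowest Rbm3 (43.2 TPM) of the cerebellum. In 6 heart libraries the summed TPM of Cd8a, Cd8b1, Dntt and Rag1, genes of developing T cells, exceeded 20, against at most 1.55 in the other heart libraries. They were normoxia replicate 3 at 7:30 (1241 TPM) and at 19:30 (889 TPM), IH replicate 2 at 16:30 (405 TPM), and IH replicates 1, 2 and 3 at 10:30 (119, 33.4 and 134 TPM). The 2 normoxia libraries also held the lung gene Scgb1a1, at 1552 and 360 TPM against a median of 0.246 TPM in the heart libraries outside the 6, and less Myh6 (2671 and 2999 TPM against a median of 4516 TPM). Rbm3 was 560 TPM in the first and 215 TPM in the second, against 58.8 to 114 TPM in the other 22 normoxia heart libraries. In bulk tissue a change in the share of a cell type cannot be told apart from a change in RNA per cell. The IH liver library of replicate 1 at 1:30 stood apart in Cirbp, at 72.5 TPM, while the highest IH liver value outside the libraries that stood apart was 41.8 TPM. It had 24403 genes above 0 TPM, against a median of 20526 in the IH liver. Several results below are also given without some or all of these 9 libraries.

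The coding sequences show how alike the genes are. Cirbp (ENSMUSG00000045193) lies on chromosome 10, at 80165985 to 80172786 on the plus strand of GRCm38, and Rbm3 (ENSMUSG00000031167) on chromosome X, at 8138975 to 8145880 on the minus strand. Cirbp has 7 annotated transcripts, 2 of them protein coding and 4 with a retained intron, and Rbm3 has 11, of which 6 are protein coding. The coding sequence is 516 bases long in Cirbp-202 and 462 in Rbm3-201. Over 450 aligned bases 330 (73.3%) were identical, but the longest identical run was 11 bases, and no stretch of 31 bases, the length kallisto matches by default, occurs in both genes. The most alike stretch of 60 coding bases, bases 87 to 146 of each, lies in the part that encodes the RNA recognition motif and shows why reads of these genes remain separable. Capitals mark the 47 identical bases, and 10 of the 13 differences fall on the third base of a codon.
Cirbp: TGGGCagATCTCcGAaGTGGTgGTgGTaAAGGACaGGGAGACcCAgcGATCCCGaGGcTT
Rbm3: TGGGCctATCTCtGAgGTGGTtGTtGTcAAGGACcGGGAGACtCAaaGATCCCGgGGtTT

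The processed pseudogene Rbm3-ps on chromosome 1 shares 372 stretches of 31 bases with Rbm3, so reads could be split between them. Its level was at most 0.607 TPM, and at most 0.777% of Rbm3 in the same library. The antisense gene Rbm3os overlaps 452 bases of Rbm3, and 66 stretches of 31 bases occur in both on opposite strands. It was not analysed here. The library kit marks strand, but the sources used here do not say whether the strand was used in counting, so part of the Rbm3 value is uncertain in this respect.

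The promoter of Cirbp is shown because cold-induced transcription is what the gene is known for. RefSeq gives 2 promoter entries for Cirbp and Rbm3 has no entry. The first entry covers the 250 bases before a start site, chr10:80167589-80167838 on the plus strand of GRCm38.p6, with 65.6% G and C.
Cirbp promoter: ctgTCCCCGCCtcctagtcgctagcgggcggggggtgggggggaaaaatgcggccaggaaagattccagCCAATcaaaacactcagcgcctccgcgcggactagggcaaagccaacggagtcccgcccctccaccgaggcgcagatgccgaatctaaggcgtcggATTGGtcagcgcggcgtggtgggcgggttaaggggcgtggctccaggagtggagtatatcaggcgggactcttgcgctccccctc
Capitals mark the motifs found on either strand. The mild cold response element TCCCCGCC begins at base -247 from the start site, and a CCAAT box is at -181 and, on the other strand (ATTGG), at -85. Of 32851 promoters of the same length, 4.64% held the cold response element and 33.8% the CCAAT box. The E-box (CACGTG, in 6.02% of promoters), TGACGTCA (a cyclic AMP response element, 1.55%) and GAANNTTC (the core of a heat shock element, 6.69%) were not in this window, and none of the 5 motifs was in the second entry. A match of letters describes the sequence only.

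Both genes were expressed in every tissue, most in the cerebellum and least in the liver. In normoxia the Cirbp level was 108 ± 39.6 TPM (mean ± SD, n = 24) in the cerebellum, 89.6 ± 27.1 in the lung, 46.5 ± 15.8 in the heart, 33.8 ± 5.34 in muscle, 32.0 ± 11.9 in the kidney and 16.8 ± 4.87 in the liver. The Rbm3 level was 312 ± 99.0 TPM in the cerebellum, 206 ± 59.3 in the lung, 110 ± 100.4 in the heart, 105 ± 22.1 in the kidney, 92.2 ± 14.9 in muscle and 35.3 ± 9.70 in the liver. Neighbours in these orders overlapped in range, except that all muscle libraries were above all liver libraries in Rbm3. For Cirbp, the cerebellum and the lung, and the heart, muscle and the kidney, did not differ by more than the larger SD of each neighbouring pair. For Rbm3 the same was true of the lung, the heart, the kidney and muscle. Without the 2 normoxia libraries with T cell precursor transcripts, Rbm3 in the heart was 85.0 ± 14.4 TPM (n = 22), which puts the heart below muscle. The lung (206 ± 59.3 TPM) then comes next to the kidney (105 ± 22.1 TPM), from which it differed by more than the larger SD. The 12 tables are separate TPM tables, so these orders are descriptions without a test.

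In IH the Cirbp level was 140 ± 49.0 TPM in the cerebellum, 138 ± 59.2 in the lung, 37.6 ± 9.93 in the heart, 36.0 ± 8.95 in muscle, 33.6 ± 13.2 in the kidney and 18.7 ± 14.0 in the liver (n = 24 each). Without the library that stood apart in Cirbp and the one with heart transcripts, the IH liver level was 16.5 ± 8.30 TPM (n = 22). Rbm3 in IH was 285 ± 134.8 TPM in the cerebellum, 183 ± 64.0 in the lung, 96.5 ± 24.1 in the kidney, 87.9 ± 16.7 in muscle, 73.8 ± 25.2 in the heart and 35.0 ± 10.1 in the liver. On the TPM scale, which accounts for transcript length, Rbm3 was above Cirbp in all 24 libraries of 10 sets, in 23 of 24 in the IH liver and in 21 of 24 in the IH lung. The median of Rbm3 over Cirbp was lowest in the IH lung (1.33) and highest in the normoxia kidney (3.70).

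**Figure D1:**
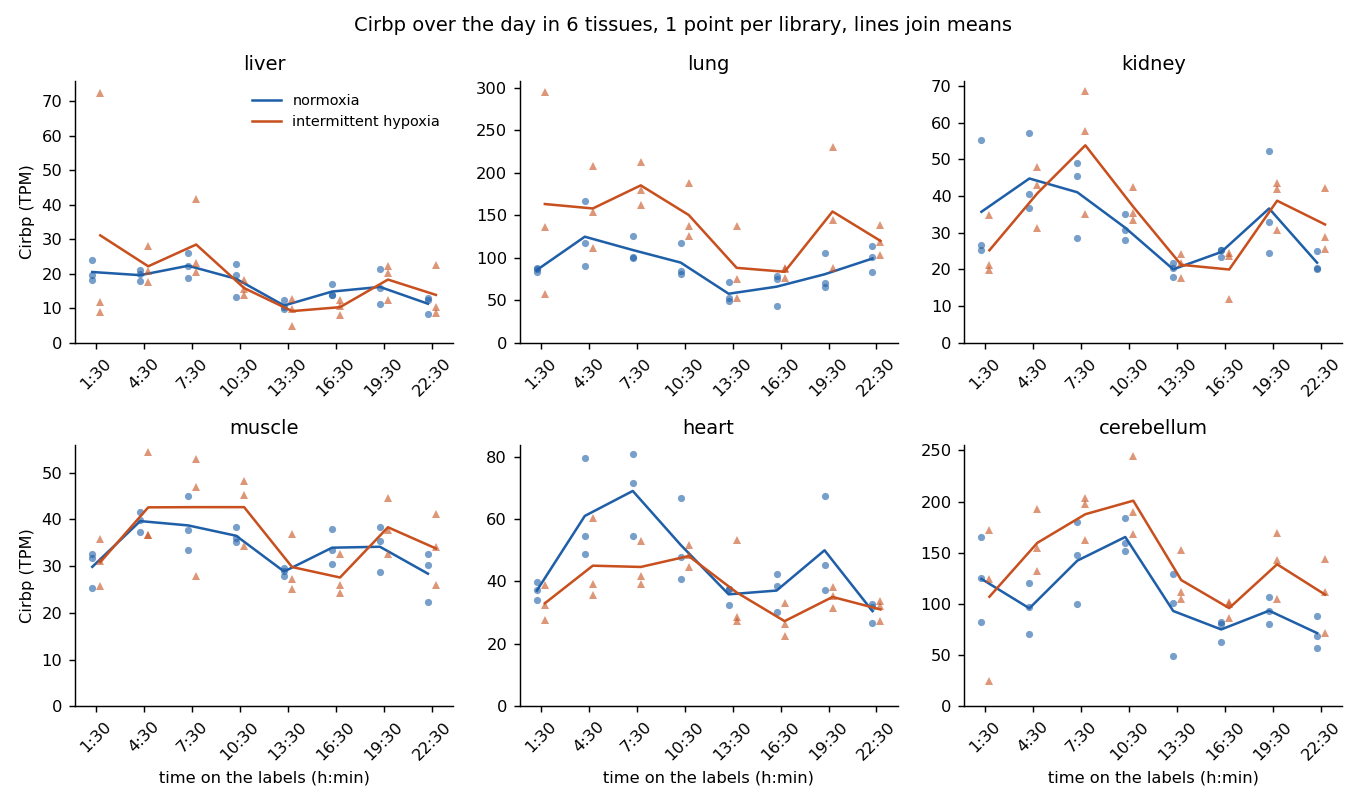
Cirbp in TPM (vertical axis) against time on the labels (horizontal axis) in 6 tissues, with 1 point per library, circles for normoxia and triangles for IH, and lines joining the means of 3 libraries. The lowest mean was at 13:30 or 16:30 in 9 of 12 sets, and the IH lung lies above the normoxia lung (means over the day 138 and 89.6 TPM).

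**Figure D2:**
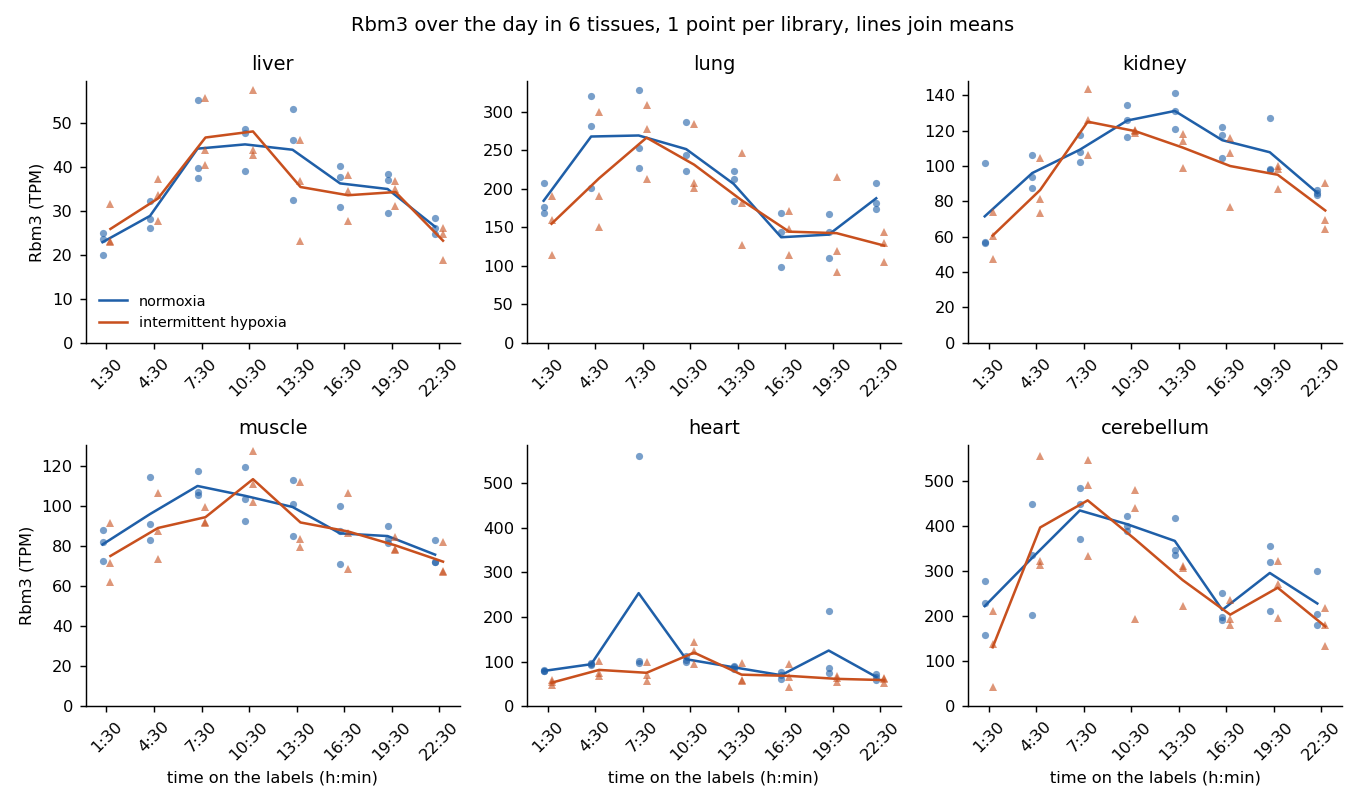
Rbm3 in TPM (vertical axis) against time on the labels (horizontal axis) in 6 tissues, with 1 point per library, circles for normoxia and triangles for IH, and lines joining the means of 3 libraries. The highest mean was between 7:30 and 13:30 in all 12 sets, and the heart library at 560 TPM is 1 of the 6 with T cell precursor transcripts.

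In all 12 sets the 3 libraries of the highest Rbm3 time point were above the 3 of its lowest. How many other genes separate in this way was not examined, so nothing is read from that count. In the normoxia kidney Rbm3 was 101, 56.8 and 56.2 TPM in the 3 libraries at 1:30 and 121, 131 and 141 TPM at 13:30. In the normoxia lung it was 227, 253 and 328 TPM at 7:30 and 99.1, 168 and 144.3 TPM at 16:30. In the normoxia liver the values were 23.7, 25.1 and 19.9 TPM at 1:30 and 39.1, 47.7 and 48.6 TPM at 10:30. These time points were picked by their means and carry no test. The ratio of the highest to the lowest time point mean ran from 1.45 in normoxia muscle to 2.11 in the IH lung among the liver, lung, kidney and muscle sets.

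Rhythm was tested with a rank test against 24-hour cosine curves and a Lomb-Scargle test, combined for each gene and adjusted over all genes that reached 1 TPM in any library of the tissue. A gene was called rhythmic at an adjusted p of 0.05 or less. Both tests read the same values, so the combined p-values are too small, and each test alone is given as an alternative. By the combined test Rbm3 was rhythmic in 9 of 12 sets and Cirbp in 1 of 12. With the rank test alone Rbm3 was rhythmic in 6 sets and with Lomb-Scargle alone in 1, the normoxia liver (adjusted p of 0.0367), and Cirbp in 0 with either. With Lomb-Scargle alone, 434 genes were called in the normoxia liver and 0 in each of the other 11 sets. By the combined test the share of all tested genes called rhythmic was 13.2% in the normoxia and 6.46% in the IH liver, 7.15% and 9.13% in the lung, 13.2% and 2.75% in the kidney, 2.36% and 5.66% in muscle, 0.659% and 2.87% in the heart, and 2.52% and 0.0421% in the cerebellum. In the IH cerebellum that was 9 genes of 21372, so few genes of any kind passed there.

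The sets in which Rbm3 was rhythmic were the liver (adjusted p of 3.26e-05 in normoxia and 0.000761 in IH), the lung (8.49e-06 and 0.00201), the kidney (1.62e-05 and 0.000436), muscle (0.00263 and 0.00515) and the normoxia cerebellum (0.0280). Among all genes by adjusted p its best ranks were 40 of 20106 in the normoxia lung and 44 of 14706 in the normoxia kidney. In the other sets in which it was rhythmic, Rbm3 ranked from 71 of 14706 in the IH kidney to 506 of 20106 in the IH lung. In the cerebellum in IH its adjusted p was 0.750, and 0.430 without the library that holds heart transcripts, where values ran from 134 to 555 TPM (n = 23). In the heart the adjusted p was 0.198 in normoxia and 0.0984 in IH. Without the libraries with T cell precursor transcripts it was 0.000182 in normoxia (n = 22) and 1 in IH (n = 20), so the heart result rests on those libraries in both directions. The IH heart mean at 10:30, the highest of that set at 120 TPM, comes from 3 libraries that all hold such transcripts. The number of sets with a rhythmic Rbm3 was 7 with a cosine fit alone, 8 with scaled TPM, and 4 to 6 with 1 replicate number left out. The call in the normoxia cerebellum held in none of these, nor with the rank test alone, Lomb-Scargle alone or the replicate block, and its adjusted p was 0.417 with the rank test alone, 0.144 with the cosine fit alone and 0.273 with scaled TPM. With the rank test, Lomb-Scargle or the cosine fit alone, 0 genes of any kind were called in that set. In muscle the calls moved too. Rbm3 in normoxia muscle did not pass with the rank test alone (adjusted p of 0.0925), scaled TPM (0.188), a limma cosine fit on log2 (0.124) or without replicates 1 or 2. In IH muscle it did not pass with the rank test alone (0.0877), the cosine fit alone (0.0573) or without any 1 of the replicate numbers. The IH liver and lung calls were lost without replicates 1 or 3 and the IH kidney call without replicate 3. Only the calls in the normoxia liver, lung and kidney held in every alternative but Lomb-Scargle alone, and that in the liver held there as well.

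Cirbp was rhythmic in the normoxia lung, with an adjusted p of 0.00566. Its values there were 90.1, 167 and 117 TPM at 4:30, the highest time, and 49.1, 53.0 and 70.9 TPM at 13:30, the lowest. The values at these times did not overlap. In the other 11 sets the adjusted p ran from 0.0829 to 0.990, and the unadjusted p was at most 0.05 in 7 of them. Nothing is read from that count, since the share of all genes at that unadjusted level is not given here. The call in the lung was lost with the rank test, Lomb-Scargle or the cosine fit alone. The combined test also lost it without replicate 1 (adjusted p of 0.244) and without replicate 2 (0.268). With scaled TPM 5 sets passed, but more genes of any kind passed in them as well. In the normoxia liver 2644 of 14482 were called (1910 on TPM as deposited), and in the normoxia lung 2194 of 20106 (1438). The normoxia kidney had 3704 of 14706 (1942), the normoxia heart 295 of 15770 (104) and the IH heart 1006 of 15770 (452). Highest and lowest time points of Cirbp did not overlap in 10 of 12 sets, the exceptions being the IH liver and IH muscle. For this count too the share over all genes was not examined, and nothing is read from it. In the normoxia liver Cirbp was 22.1, 25.9 and 18.9 TPM at 7:30 and 10.3, 12.4 and 9.65 TPM at 13:30. These pairs of times were picked for their distance, so they describe the curves and test nothing.

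The peak time of the fitted cosine (acrophase) placed Cirbp earlier than Rbm3. Across the 12 sets the acrophase of Cirbp ran from 3.81 to 8.35 h and that of Rbm3 from 7.14 to 12.9 h, and Rbm3 was later in each set. In the normoxia kidney the acrophases were 4.67 h (SE 1.37) and 12.9 h (SE 0.536), and in the normoxia cerebellum 8.10 h (SE 1.11) and 9.40 h (SE 0.814). They were 8.35 h (SE 1.11) and 8.68 h (SE 0.956) in the IH cerebellum. In the normoxia heart they were 7.27 h (SE 1.17) and 7.91 h (SE 2.52). In the IH cerebellum and the normoxia heart the gap was smaller than either SE, so the order there is uncertain. Amplitude as a share of the mean level (MESOR, the midline of the cosine) was 0.106 to 0.470 for Cirbp and 0.168 to 0.430 for Rbm3. The earliest acrophase and the largest share of Cirbp both belong to the IH liver, where the amplitude of 8.78 TPM became 5.67 TPM and the acrophase 5.60 h without the 2 libraries that stood apart there (n = 22). Among genes of the clock in the sets in which each was rhythmic, Arntl peaked on average at 22.6 h, Npas2 at 23.4 h, Nr1d1 at 6.33 h and Dbp at 9.34 h. The mean for Rbm3 was 10.2 h over its 9 rhythmic sets. Cirbp had 1 rhythmic set, the normoxia lung, at 4.33 h, so its other acrophases come from sets not called rhythmic.

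**Figure D3:**
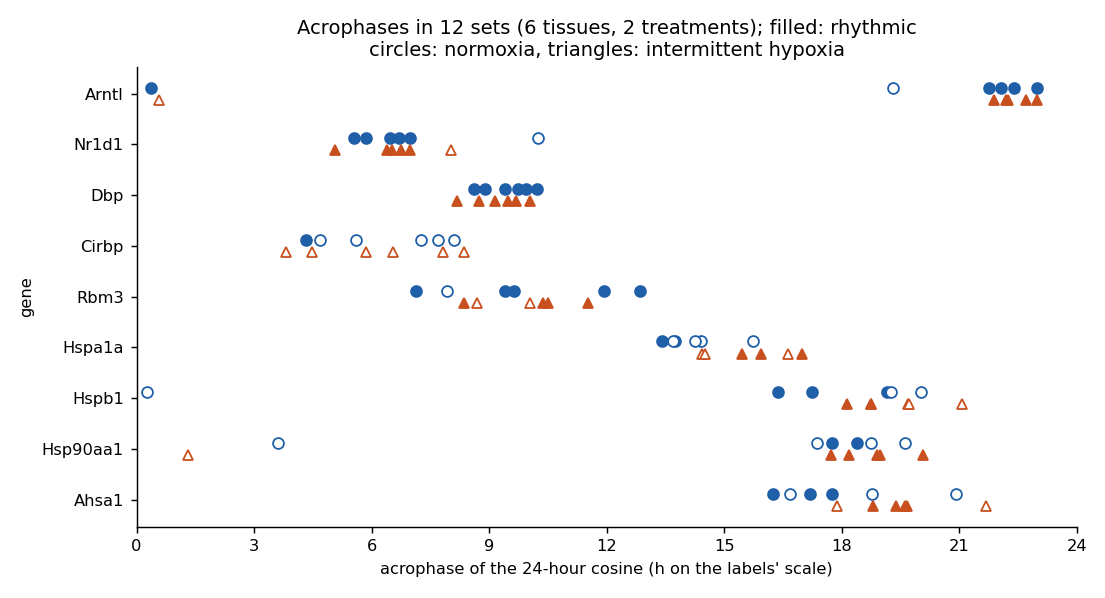
Acrophase in hours on the labels' scale (horizontal axis) for 9 genes (vertical axis) in 12 sets, with circles for normoxia and triangles for IH, filled where the gene was rhythmic. Cirbp lies between 3.81 and 8.35 h, Rbm3 between 7.14 and 12.9 h, and the rhythmic sets of the chaperone genes lie later, from 13.4 to 20.1 h.

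Whether both genes share a time course was tested through their ratio within a library, which does not depend on how libraries are scaled. A cosine was fitted to the log2 ratio of Cirbp to Rbm3 in each set, with a permutation test of 100000 resamples adjusted over 12 sets. The ratio was rhythmic in 6 of 12 sets, namely the liver (adjusted p of 0.0004 in normoxia and 0.00214 in IH), the lung (0.0012 and 0.00338) and the kidney (0.0003 and 0.0003). Its log2 amplitude was 0.61 and 0.73 in the liver, 0.34 and 0.44 in the lung, and 0.65 and 0.60 in the kidney, and it peaked between 22.9 and 2.83 h. Without the IH liver library of high Cirbp, the amplitude there was 0.58 (adjusted p of 0.00958). With a replicate number left out, the IH liver did not pass without replicate 1 (0.0836) and the IH lung not without replicate 2 (0.115), while the other 4 sets passed each time. In muscle, heart and cerebellum the adjusted p was 0.0519 to 0.882. With all libraries the time courses of the 2 genes therefore differed, in phase or in amplitude, in the liver, lung and kidney. No such difference was detected in the other tissues with all libraries and no block, which does not show that the time courses are alike there. In IH muscle the permutation test passed without replicate 1 (adjusted p of 0.0438) and with the replicate block (0.0401).

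Whether the time course of each gene differs among tissues was tested in 1 limma fit of all normoxia libraries. The tissue by time interaction passed for Rbm3 (F of 3.08 with 10 degrees of freedom, adjusted p of 0.0130) and not for Cirbp (F of 1.56, adjusted p of 0.269). It passed for 20.3% of the 9876 genes that averaged 1 TPM or more in each tissue. The adjusted p of Rbm3 was 0.000794 without the 2 heart libraries of the normoxia group with T cell precursor transcripts. It was 0.0937 without replicate 1 and 0.563 without replicate 2, so the difference did not hold in every choice of replicates.

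For the comparison of treatments, the mean 24-hour level was tested per tissue with limma on log2(scaled TPM + 0.5), adjusted over all genes that averaged 1 TPM or more. In the lung, Rbm3 ran from 99.1 to 328 TPM (median 204) in normoxia and from 92.2 to 309 TPM (median 176) in IH, and Cirbp from 43.4 to 167 TPM (median 85.5) and from 52.3 to 295 TPM (median 137). In the heart, Rbm3 ran from 58.8 to 560 TPM (median 87.7) in normoxia and from 43.4 to 143 TPM (median 64.5) in IH, and Cirbp from 26.7 to 80.9 TPM (median 40.3) and from 22.5 to 60.3 TPM (median 35.6). The treatments overlapped in both tissues and both genes, while the medians of the 2 genes changed in opposite directions in the lung and both were lower in the IH heart.

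In the heart both genes were lower in IH. Cirbp changed by -0.40 (SE 0.11, adjusted p of 0.00296) and Rbm3 by -0.54 (SE 0.14, adjusted p of 0.00128) on the log2 scale. In the lung Rbm3 changed by -0.49 (SE 0.13, adjusted p of 0.00113) and Cirbp by 0.25 (SE 0.15, adjusted p of 0.125). The other 8 comparisons did not pass, and the nearest was Cirbp in the cerebellum, 0.37 (SE 0.14, adjusted p of 0.0701). With 3 of 12 comparisons passed, the background matters. The share of all genes that passed the same test was, by tissue, lung 70.4%, heart 45.2%, liver 24.3%, kidney 19.8%, cerebellum 15% and muscle 10.4%. A call in the lung or heart is thus no particular feature of these genes. At an adjusted p of 0.05 and at least 1.5-fold, neither gene was called in any tissue in limma with all libraries and no further term. The largest change was 1.46-fold on scaled TPM, for Rbm3 in the heart, and 1.47-fold on TPM as deposited, for Cirbp in the lung. Rbm3 passed that rule in the lung with the genes detected as a term (2.01-fold) and without replicate 1 (1.68-fold), and in the heart without replicate 2 (1.55-fold). In libraries of 1 replicate number, Rbm3 passed it in the lung (replicate 3, 1.89-fold) and the heart (replicate 1, 1.51-fold). Cirbp then passed it in the lung (replicate 1, 1.66-fold), the heart (replicate 1, 1.51-fold) and the cerebellum (replicate 2, 1.61-fold). By that rule the shares were lung 13.5%, liver 3.65%, heart 2.95%, cerebellum 2.64%, kidney 0.783% and muscle 0.374%. At an unadjusted p under 0.05 in limma, 5 of the 12 comparisons passed. Of all genes, 11196 of 15426 passed at that level in the lung, 6643 of 12779 in the heart and 4194 of 11334 in the liver. In the kidney it was 4264 of 12902, in the cerebellum 4515 of 14892 and in muscle 3063 of 12824.

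The scale of the libraries changed the picture. Dividing each library by its median ratio to the geometric mean of the tissue's libraries left the median log2 change over all genes at -0.08 in the lung, 0.04 in the heart and -0.01 in the liver, whereas TPM as deposited gave 0.21, 0.15 and -0.12. Calls in the lung were 4464 higher and 6400 lower with scaling and 8478 and 1655 without. In the heart they were 3575 and 2207 with scaling, and 4788 and 816 without. On TPM as deposited, Cirbp in the lung changed by 0.55 (limma, adjusted p of 0.00134) and Rbm3 by -0.19 (adjusted p of 0.196), so which of the genes passed depended on the scale. In the heart both were lower on either scale (-0.28 and -0.42, limma adjusted p of 0.0453 and 0.0247). Once log2 of the genes detected entered the fit, the heart changes were -0.06 for Cirbp and 0.17 for Rbm3 (limma adjusted p of 0.888 and 0.698), and the lung changes were -0.49 and -1.01 (0.0271 and 2.43e-05). Without the 6 heart libraries with T cell precursor transcripts, the heart changes were -0.43 (limma adjusted p of 0.00237) and -0.55 (4.56e-05).

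Values within 1 replicate number (8 libraries per treatment) also differed. In the lung the log2 change of Cirbp was 0.73, 0.31 and -0.29 in replicates 1, 2 and 3, and that of Rbm3 was 0.02, -0.58 and -0.92. In the heart Cirbp changed by -0.59, -0.44 and -0.17 and Rbm3 by -0.59, -0.37 and -0.67. In the cerebellum Cirbp changed by 0.40, 0.69 and 0.01. The lung change of Cirbp thus had no common sign across replicate numbers, whereas the heart changes did. Calls also moved when 1 replicate number was left out. Cirbp in the heart did not pass without replicate 1 (limma adjusted p of 0.0761), and Rbm3 in the lung did not pass without replicate 3 (0.104). Cirbp in the lung passed without replicate 3 (0.00838), and Cirbp in the cerebellum too (0.0106). Without the cerebellum library that holds heart transcripts, the cerebellum change of Cirbp was 0.43, with a limma adjusted p of 0.0154. More genes of any kind passed in these 2 cerebellum fits. They were 5311 of 15084 without replicate 3 and 3631 of 14861 without that library, against 2234 of 14892 with all libraries.

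**Figure D4:**
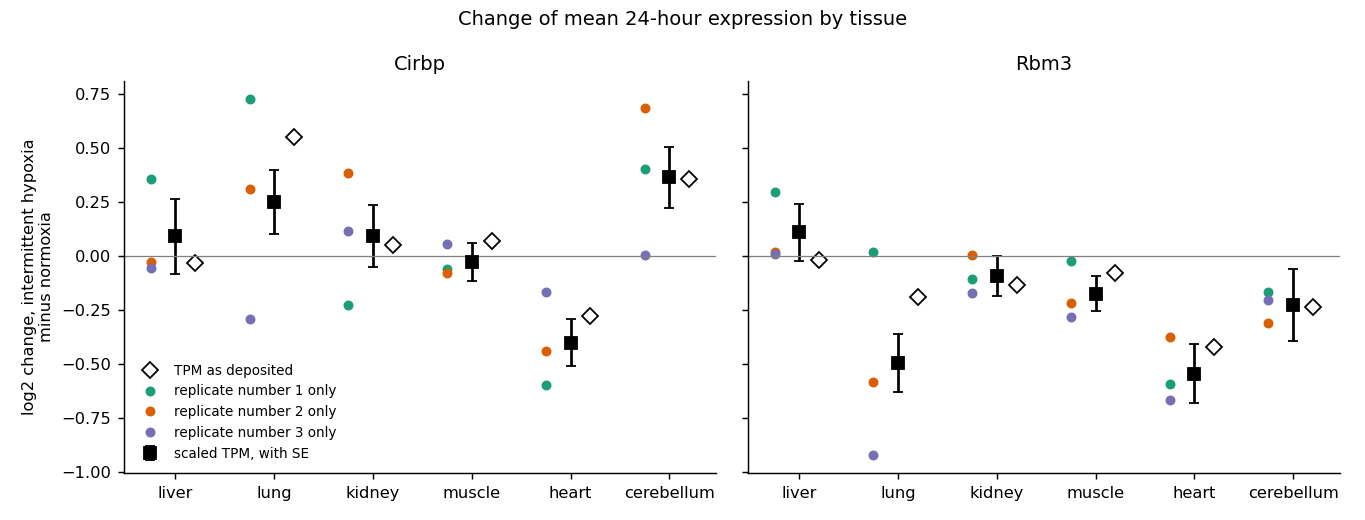
Log2 change of mean 24-hour expression, IH minus normoxia (vertical axis), by tissue (horizontal axis) for Cirbp and Rbm3. Squares with SE bars show scaled TPM (24 libraries per treatment), open diamonds TPM as deposited, and coloured points the libraries of 1 replicate number. In the lung the diamonds lie above the squares (0.55 against 0.25 for Cirbp, -0.19 against -0.49 for Rbm3).

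Whether the change with IH differs among tissues was tested in 1 limma fit of all libraries. The treatment by tissue interaction passed for Cirbp (F of 3.58 with 5 degrees of freedom, adjusted p of 0.00492) and Rbm3 (F of 3.62, adjusted p of 0.00453). It passed for 88.3% of the 9876 genes tested, so it does not set them apart. For Rbm3 the adjusted p was 0.368 on TPM as deposited, and for Cirbp it was 0.112 without replicate 1 and 0.171 without replicate 2.

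The ratio of Cirbp to Rbm3 avoids the choice of scale. A test of it between treatments was added after the values had been seen, with treatment permuted within time points (100000 resamples, 2-sided) and adjusted over 6 tissues. In the lung the mean log2 ratio was -1.20 ± 0.35 (SD, n = 24) in normoxia and -0.45 ± 0.47 in IH, a difference of 0.74. Its adjusted p of 3e-05 comes from the smallest p these permutations can give (1e-05). In the cerebellum it was -1.55 ± 0.46 and -0.96 ± 0.41, a difference of 0.59 with the same adjusted p. In both tissues the IH mean was higher at 8 of 8 time points. Within replicates 1, 2 and 3 the difference was 0.71, 0.89 and 0.63 in the lung and 0.57, 1.00 and 0.21 in the cerebellum. With log2 of the genes detected in the fit it was 0.51 (SE 0.19) in the lung and 0.57 (SE 0.13) in the cerebellum, 0.14 (SE 0.18) in the kidney, 0.15 (SE 0.08) in muscle, 0.08 (SE 0.19) in the liver and -0.23 (SE 0.22) in the heart. Differences in the other tissues were 0.18 in the kidney and 0.15 in muscle (adjusted p of 0.0760 for each), 0.14 in the heart (0.358) and -0.01 in the liver (0.926). Without replicate 1 the differences in the kidney (0.33, adjusted p of 0.0098) and muscle (0.24, adjusted p of 0.0222) passed, and without replicates 2 or 3 neither did. Without the liver library of high Cirbp the liver difference was -0.11 (adjusted p of 0.405). Whether the difference in the ratio itself varies among tissues was not tested. How many other pairs of genes would pass the same test was not examined, so the difference is not shown to be particular to these genes.

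**Figure D5:**
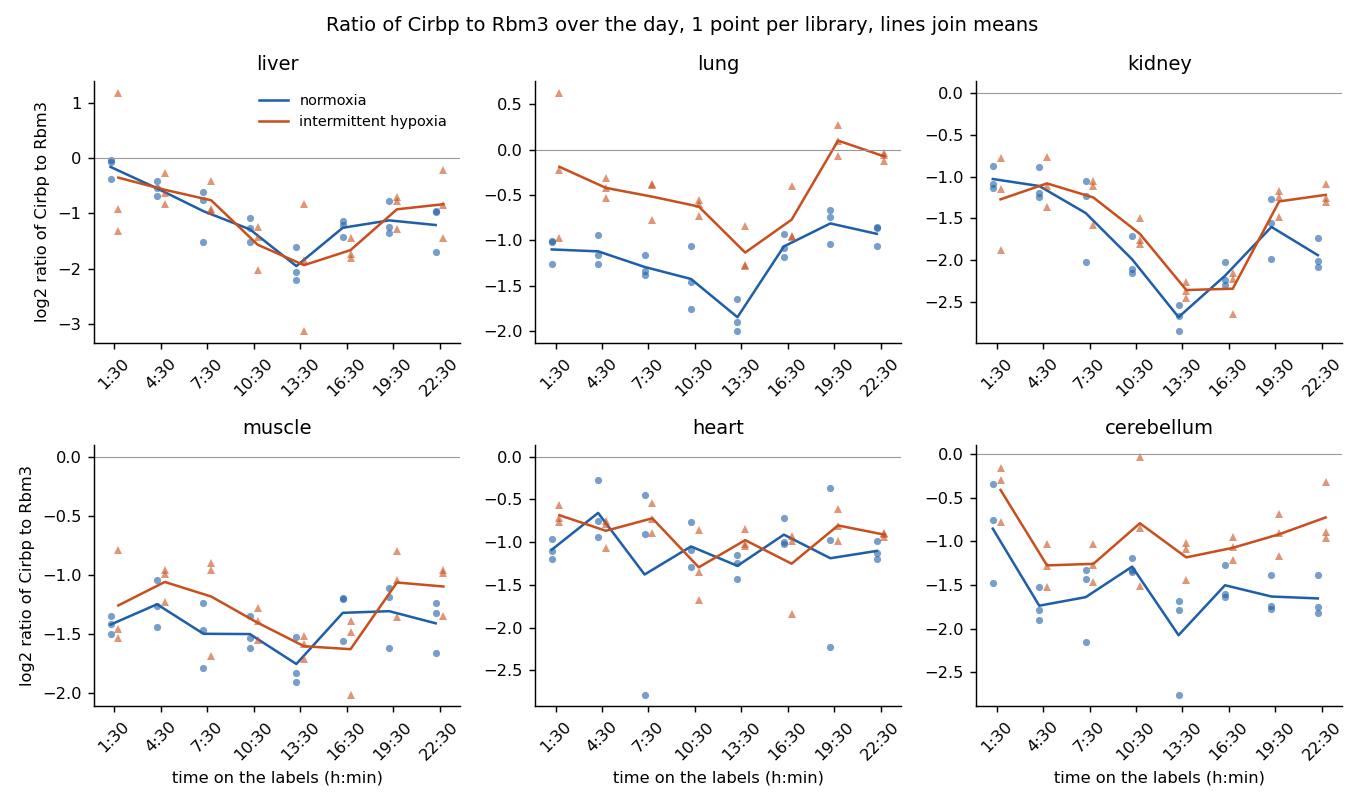
Log2 ratio of Cirbp to Rbm3 (vertical axis) against time on the labels (horizontal axis) in 6 tissues, with 1 point per library, circles for normoxia and triangles for IH, and lines joining the means of 3 libraries. In the lung and the cerebellum the IH mean lies above the normoxia mean at 8 of 8 time points.

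For genes rhythmic in at least 1 treatment, cosine curves were compared between treatments in TPM as deposited. This could be done for Rbm3 in 5 tissues and for Cirbp in the lung. Of 18 differences in MESOR, amplitude and acrophase, 1 passed, the MESOR of Cirbp in the lung. It was 89.6 TPM in normoxia and 138 TPM in IH, a difference of 48.1 TPM (SE 12.1, adjusted p of 0.00064). It did not pass with scaled TPM (21.8 TPM, adjusted p of 0.0525), on log2 of scaled TPM (0.25, adjusted p of 0.0882) or without replicate 1 (36.6 TPM, adjusted p of 0.0687). Among all genes compared, the share with a MESOR difference was lung 64.8%, liver 28.9%, kidney 12.6%, muscle 10.4% and cerebellum 0.552%. For amplitude it was lung 0.395% and 0% elsewhere. For an acrophase difference of 4 h or more it was lung 0.144%, liver 0%, kidney 0.0481%, muscle 0.493% and cerebellum 2.95%. A MESOR difference in the lung was therefore the case for most rhythmic genes there. The cerebellum shares depend on 1 library. Without the one that holds heart transcripts, 106 of 543 genes passed there for amplitude and 55 for MESOR, against 0 and 3 with it. Rbm3 was not among them.

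None of the Rbm3 differences passed. Its acrophase in IH minus normoxia was -1.55 h (SE 1.01) in the liver, 1.21 h (SE 0.998) in the lung, -1.35 h (SE 0.847) in the kidney, 0.88 h (SE 1.17) in muscle and -0.72 h (SE 1.31) in the cerebellum. Its amplitude differed by -0.671 TPM (SE 2.74) in the liver, -3.54 TPM (SE 17.0) in the lung, 0.447 TPM (SE 5.76) in the kidney, 0.263 TPM (SE 4.76) in muscle and 24.5 TPM (SE 37.1) in the cerebellum. The MESOR difference in the lung was -22.6 TPM (SE 12.03, adjusted p of 0.0972) and passed with scaled TPM, at -63.8 TPM. Since Cirbp was called rhythmic in the normoxia lung and not in the IH lung, its amplitude was compared there, 24.7 and 37.3 TPM, a difference of 12.6 TPM (SE 17.1, adjusted p of 0.692). Loss of rhythm in IH is therefore not shown.

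The genes most like each member were named by the correlation of log2(scaled TPM + 0.5) over all libraries after the mean of each set was subtracted, among 9875 genes. Libraries share their time, mouse and RNA quality, so these values are descriptions. Cirbp was most like Srsf5 (r = 0.75), Haghl (0.74), Hnrnpdl (0.70) and Ppp2r3d (0.64). Srsf5 and Hnrnpdl encode RNA-binding proteins. The most opposite genes were Dnaja1 (r = -0.75), Chordc1 (-0.70), Hsph1 (-0.70), Tmem33 (-0.69) and Hspa1b (-0.68). Dnaja1, Chordc1, Hsph1 and Hspa1b encode chaperones or their partners. Within single sets (24 libraries) r with Dnaja1 ran from -0.94 to -0.34, negative in each, and r with Srsf5 from 0.31 to 0.91.

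Rbm3 was most like Hmgn2 (r = 0.64), Sin3b (0.62), Selenoh (0.62), Dbp (0.61) and Tipin (0.60), and most opposite to Dtx4 (-0.67), Dapk1 (-0.66), Dpp9 (-0.62), Efnb1 (-0.60) and Kank1 (-0.60). Dbp encodes a clock-controlled transcription factor, and its r with Rbm3 was 0.44 to 0.82 within single sets. Without the 9 libraries that stood apart, Dbp (0.65) remained in the list for Rbm3, whereas Hmgn2, Sin3b, Selenoh and Tipin gave way to Zfp467 (0.67), Tmem219 (0.63), Gstt2 (0.63) and Pcsk4 (0.62). Among its most opposite genes Efnb1 and Kank1 gave way to Lasp1 (-0.62) and Npas2 (-0.61). Srsf5 (0.76), Haghl (0.73), Dnaja1 (-0.78) and Hsph1 (-0.76) remained in the list for Cirbp, as did Hnrnpdl and Tmem33. Chordc1, Hspa1b and Ppp2r3d left it, and Polg2 (0.70), Sat2 (0.66), P4ha1 (-0.73) and Stip1 (-0.71) entered. Cirbp and Rbm3 had an r of 0.46 with each other. By that value Rbm3 ranked 135 among the genes most like Cirbp, and Cirbp ranked 187 for Rbm3. Without the 9 libraries r was 0.49 and the ranks were 85 and 150.

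Heat-inducible chaperones and their regulators, which respond to temperature the opposite way, were followed as a list of 20 genes. Of these, 18 were rhythmic in at least 1 set, in 67 of 240 combinations of gene and set. Over all genes tested, 27.9% were rhythmic in at least 1 set, and 5.31% of combinations were rhythmic. Hspb1, Hsp90aa1 and Ahsa1 were rhythmic in 7 sets each and Hspa1a in 5, with mean acrophases of 18.3, 18.6, 18.4 and 15.1 h. All acrophases of these 4 genes in their rhythmic sets came after the Cirbp and Rbm3 range. By treatment, 13 of the 20 chaperone genes were lower and 2 higher in the lung (41.5% and 28.9% of all genes tested), their median log2 change being -0.38 against -0.08 over all genes. In the heart 9 were higher and 1 lower (28.0% and 17.3% of all genes), with a median of 0.15 against 0.04. Counts in the other tissues were 1 higher and 2 lower in the liver, 2 and 1 in the kidney, 0 and 2 in the cerebellum, and 0 in muscle. Over all genes the shares higher and lower were liver 10.96% and 13.3%, kidney 8.25% and 11.5%, cerebellum 9.76% and 5.24%, and muscle 5.48% and 4.89%.

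Genes of proteins known to act on CIRBP and RBM3, or whose messages they bind, were a list of 16, of which 15 passed the filter for the rhythm test. Clock, whose message CIRBP binds, was rhythmic in 5 sets with a mean acrophase of 22.8 h. Txn1, which encodes thioredoxin, was rhythmic in 2 sets, and Rpa2, a subunit of a protein that binds single-stranded DNA, in 1. Ntrk2, which encodes the receptor of a neurotrophin upstream of RBM3, was named next by the rule and was rhythmic in 0 of 12 sets. In the lung 4 of the 15 were higher and 5 lower in IH, and in the heart 5 and 5. In the liver 2 were lower, in the kidney 1 was lower, in muscle 3 were higher, and in the cerebellum 1 was higher and 2 lower. The shares over all genes given above are the background of these counts, and nothing is read from them about the list.

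Other genes of RRM proteins were followed for comparison. Tardbp was rhythmic in 5 sets, at 19.8 h, and Tra2a and Tra2b in 3 each, at 19.9 and 19.8 h. The mean acrophases of these 3 genes thus lay apart from those of Cirbp and Rbm3, though the sets of Tra2b ran from 13.4 to 23.9 h. Other genes of the list, rhythmic in fewer sets, had mean acrophases from 4.66 to 6.65 h, within the Cirbp range. Peaks apart from Cirbp were therefore no general feature of the list. All 10 clock genes were rhythmic in at least 1 set, in 97 of 120 combinations. In the lung 4 of them were higher in IH, where 28.9% of all genes were, and in the other tissues 0 of 10 passed in limma.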

How the data were processed

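RNA was sequenced from 288 libraries after poly(A) selection with a strand-marking kit. The authors quantified transcripts with kallisto against Ensembl release 102 of the mouse genome (mm10) and deposited gene TPM in 12 tables. FastQC 0.11.3 is named in the submitters' processing notes. No counts were used here, so limma on log2 values took the place of a count test. For tests between treatments and among tissues, TPM was scaled per library within a tissue by the median of ratios over genes above 0 in all 48 libraries, and log2(scaled TPM + 0.5) was fitted in limma 3.58.1 (R 4.3.3) with Benjamini-Hochberg adjustment over all genes that averaged 1 TPM or more. Rhythm was tested on TPM with re-implemented rank (8 phases) and Lomb-Scargle tests at 24 h, and differences between treatments with cosine fits (Python 3.11.15, numpy 2.4.6, scipy 1.17.1). Scripts were tested on simulated data. Libraries were taken as independent, since the labels do not say which share a mouse, and p-values measure the spread between libraries. No 2 libraries held the same values.

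The members and lists were chosen with earlier results of these data known. Beside Cirbp and Rbm3, at most 4 genes a list were named, those rhythmic in the most sets, with ties broken by relative amplitude in normoxia, and for each member the 5 genes of highest and of lowest correlation, skipping unnamed models and pseudogenes. Some genes of these lists, and the counts that need them, are not reported here. Alternatives covered scaling, pseudocounts of 0.1 and 1, filters, terms for time point and genes detected, replicate blocks, left-out replicates, and left-out libraries. Lomb-Scargle alone, leaving out the heart libraries with T cell precursor transcripts or the liver library of high Cirbp, the 12-hour term, the ratio between treatments and the treatment by tissue fits without a replicate number were chosen after the values had been seen. Sequences came from RefSeq (GRCm38.p6) and GENCODE release 21 of the mouse (GRCm38).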

Additional observations from a re-analysis of the deposited data

Results flagged for a closer look

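The change of Cirbp with IH differed among the 6 tissues by the limma interaction test over all libraries (adjusted p of 0.00492). On the log2 scale the heart changed by -0.40 and the cerebellum by 0.37. The same interaction passed for Rbm3 (adjusted p of 0.00453), with -0.54 in the heart, -0.49 in the lung and 0.11 in the liver. It passed for 88.3% of all genes tested. It did not pass for Cirbp without replicates 1 or 2 (adjusted p of 0.112 and 0.171), nor for Rbm3 on TPM as deposited (0.368). In the heart the number of genes detected was separate between treatments, and its part cannot be told apart from that of the treatment.

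The time course of Rbm3 in normoxia differed among tissues by the limma interaction test over the normoxia libraries (adjusted p of 0.0130), as did that of 20.3% of all genes tested. It did not pass without replicates 1 or 2 (0.0937 and 0.563). Its acrophase was 7.14 h in the lung and 12.9 h in the kidney, and its amplitude as a share of the MESOR was 0.168 in muscle and 0.326 in the lung.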

How the results depend on the processing

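Of 188 alternative values of the 12 log2 changes with treatment, 155 kept their direction and side of the threshold. On TPM as deposited, the change of Cirbp was -0.032 in the liver, 0.55 in the lung (limma adjusted p of 0.00134) and 0.069 in muscle, and that of Rbm3 was -0.018 in the liver and -0.19 in the lung. With a term for genes detected, Cirbp was -0.49 in the lung, -0.00111 in the kidney, -0.060 in the heart and 0.43 in the cerebellum (limma adjusted p of 0.0496), and Rbm3 was 0.17 in the heart. With a term for time points, Cirbp in the cerebellum stayed at 0.37 and passed (limma adjusted p of 0.0189). Without the 2 libraries of doubtful tissue it was 0.43 and passed. In libraries of 1 replicate number, Cirbp was -0.027 (replicate 2) and -0.053 (replicate 3) in the liver, 0.73 (replicate 1) and -0.29 (replicate 3) in the lung, -0.22 (replicate 1) in the kidney, 0.054 (replicate 3) in muscle, -0.44 (replicate 2) and -0.17 (replicate 3) in the heart and 0.69 (replicate 2) in the cerebellum. Rbm3 was 0.020 (replicate 1) in the lung, 0.00589 (replicate 2) in the kidney, and -0.37 (replicate 2) and -0.67 (replicate 3) in the heart. Fewer samples entered these fits. With 1 replicate number left out, Cirbp ran from -0.040 to 0.17 in the liver, 0.010 to 0.52 in the lung, -0.054 to 0.25 in the kidney, -0.52 to -0.30 in the heart and 0.21 to 0.55 in the cerebellum, and Rbm3 from -0.75 to -0.28 in the lung. The cause of these shifts was not tested.

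Cirbp was rhythmic in 0 sets with the rank test alone, 0 with Lomb-Scargle alone, 0 with the cosine fit alone, 5 with scaled TPM, 3 with a limma cosine fit on log2 of scaled TPM, and 0 to 1 with a replicate number left out. Rbm3 was rhythmic in 6 with the rank test alone, in 1 with Lomb-Scargle alone, in 4 to 6 with a replicate number left out and in 10 without the 6 heart libraries. The MESOR difference of Cirbp in the lung was 21.8 TPM with scaled TPM, 0.25 on log2 and 36.6 to 69.1 TPM with a replicate number left out, and 1 to 2 of 18 differences passed. For Rbm3 in the liver, the MESOR difference was 4.03 TPM with scaled TPM, 0.11 on log2 and 0.567 TPM without the library of doubtful tissue, and the amplitude difference 5.98 TPM, 0.14 and 0.62 TPM. On log2 the amplitude difference in the lung was -0.036 for Cirbp and 0.070 for Rbm3. With a replicate number left out, MESOR differences of Rbm3 ran from -2.78 to 0.982 TPM in the liver and -52.1 to 3.04 TPM in the lung, amplitude differences from -3.46 to 1.16 TPM in the liver, -29.7 to 20.1 TPM in the lung, -6.57 to 6.27 TPM in the kidney, -0.821 to 2.95 TPM in muscle and -7.1 to 48.2 TPM in the cerebellum, and acrophase differences from -0.189 to 1.63 h in muscle and -1.77 to 0.615 h in the cerebellum, and from -1.41 to 2.76 h for Cirbp in the lung. On TPM as deposited with all replicates none of these passed, but the MESOR difference of Rbm3 in the lung did with scaled TPM (-63.8 TPM, adjusted p of 1.29e-05) and on log2 (-0.49, adjusted p of 7.03e-06). Without replicate 1 the MESOR difference of Rbm3 in the lung passed (-52.1 TPM, adjusted p of 0.00126). In the kidney that difference ran from -13.7 to -0.457 TPM and passed without replicate 2 (adjusted p of 0.0351). The adjusted p of the daily ratio ran from 0.00702 to 0.0836 in the IH liver, 0.00702 to 0.115 in the IH lung and 0.0438 to 0.423 in IH muscle. With a replicate number left out, the added ratio difference between treatments ran from -0.055 to 0.011 in the liver and -0.035 to 0.25 in the heart. The interaction of treatment and tissue had an adjusted p of 0.368 for Rbm3 on TPM as deposited and of 0.000153 to 0.171 for Cirbp with a replicate number left out, and that of time and tissue for Rbm3 ran from 0.00630 to 0.563.

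The labels give replicate numbers no meaning beyond naming libraries. Across all pairs of the same tissue, time and number, 54 had a correlation of deviations above 0.1 (range -0.55 to 0.57), and 56 correlated best with their own number. By tissue, of 24 pairs each, 16 were above 0.1 in the liver, 12 in muscle, 8 in the heart, 7 in the cerebellum, 6 in the kidney and 5 in the lung. With the replicate block, 2 sets were rhythmic for Cirbp by the cosine fit, and the ratio in IH muscle had an adjusted p of 0.0401. With the replicate block within time points, Cirbp in the cerebellum (0.37, limma adjusted p of 0.0341) and Rbm3 in muscle (-0.17, limma adjusted p of 0.0270) passed. Pseudocounts and filters changed no call on these genes. TPM holds no depth, so counting error cannot be separated from the spread between mice, and no detection limit can be given. Tests per set rest on 24 libraries at 8 times, which span a single day, so a rhythm cannot be told apart from a course that does not repeat.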

Other observations

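Cirbp had a second, smaller rise of its means at 19:30 in several tissues. In the normoxia kidney the mean was 24.7 ± 1.10 TPM (SD, n = 3) at 16:30, 36.6 ± 14.3 TPM at 19:30 and 21.8 ± 2.80 TPM at 22:30. A 12-hour cosine was therefore added to the 24-hour one, after this had been seen, over the 48 libraries of each tissue. No member passed after adjustment in limma. For Cirbp the adjusted p was 0.0781 in the kidney (log2 amplitude 0.33), 0.311 in the cerebellum, 0.459 in muscle, 0.555 in the heart, 0.696 in the lung and 1 in the liver, and the unadjusted p was at most 0.05 in 5 of 6 tissues. The share of all genes at that unadjusted level is not given here, so nothing is read from that count. After adjustment, the share of all genes that passed ran from 0% in the heart and cerebellum to 0.194% in the liver. For Rbm3 the lowest adjusted p was 0.122, in the cerebellum. The peaks of the 12-hour term of Cirbp lay between 6.84 and 8.10 h, and again 12 hours later.

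Summed TPM of 3 other cell lists in the heart was as follows. The red blood cell list (Hbb-bs, Hbb-bt, Hba-a1 and Alas2) had a median of 36589.5 in normoxia and 43259.3 in IH, with Hbb-bs the most abundant gene. The white adipocyte list (Adipoq, Plin1, Cfd and Lep) had medians of 169 and 330, led by Cfd. The brown adipocyte list (Ucp1, Cidea, Elovl3 and Cox8b) had medians of 3926 and 3498, led by Cox8b, which heart and muscle express themselves. In the lung the medians were 37884.0 and 29962.6 for the red blood cell list, 321 and 308 for the white adipocyte list, and 44.7 and 52.6 for the brown adipocyte list. Each gene of these lists was above 0 in at least 1 library of each of these sets. Their part in the treatment results was not tested.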
